A study of Homo sapiens with 6 samples.

Results

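The collagen genes of U-2 OS cells, a human osteosarcoma line, were compared between cells with and without knock-down of SFPQ, a nuclear DNA- and RNA-binding protein. A collagen gene was taken as any protein-coding gene whose symbol reads COL, a number, A and a number, such as COL1A1. This gave 44 of the 60664 genes in the deposited table, which holds 19942 protein-coding genes, and all 44 had enough counts to be tested. By the type of their product they were split into 11 fibrillar genes, 6 genes of the basement membrane (the type IV chains) and 27 others. The study sequenced RNA of U-2 OS cells that had received control siRNA (siControl) or siRNA against SFPQ (siSFPQ), each at 30 nM and each with 3 replicates. All 6 libraries came from this single cell line, and the groups differed in the siRNA alone according to the labels. Counts per library summed to 46142855, 47119203 and 46830736 in siControl and to 43469321, 45511855 and 45543610 in siSFPQ.

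Collagen chains assemble into trimers that share a helix of repeated glycine-containing triplets. Fibrillar collagens form the banded fibrils of bone, skin and tendon, and type IV collagens form the sheet-like network under epithelia and around vessels. The remaining types sit on fibril surfaces (the FACIT group), form beaded filaments, hexagonal lattices or anchoring fibrils, or span the cell membrane. Osteoblasts, the cells that osteosarcoma resembles, lay down type I collagen as the scaffold of bone. Most collagen genes code for the helix in many small exons, and yet their introns differ so much in length that their spans on the chromosome do too.

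SFPQ, the targeted gene (ENSG00000116560), served as a check of the labels. Its counts were 22338, 23139 and 21753 in siControl and 3140, 3863 and 3151 in siSFPQ. The groups were far apart, and the siSFPQ level was 15.04% of the siControl level (log2 fold change -2.73, standard error 0.05, adjusted p = 6.33e-30). Here and below a log2 fold change is siSFPQ against siControl, and adjusted p-values come from edgeR (quasi-likelihood) and were adjusted by Benjamini-Hochberg over 29022 genes. A gene is said to have risen or fallen where its adjusted p was under 0.05. As bulk RNA was counted, fewer cells that express a gene and less of its RNA per cell cannot be told apart.

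Collagen genes fell more often than they rose after SFPQ knock-down, and 11 of the 18 that fell were fibrillar or type IV genes. In all, 10 of the 44 rose and 16 did not pass the test. Among all genes tested, 22.1% fell and 22.4% rose, and among protein-coding genes 30.9% fell and 28.0% rose. The fibrillar class had 6 genes that fell and 3 that rose, the type IV class had 5 that fell and 0 that rose, and the other types had 7 of each. With the added limit of a log2 fold change beyond 1.5 in either direction, 6 collagen genes fell (COL8A1, COL4A6, COL22A1, COL5A1, COL4A5 and COL5A2) and 3 rose (COL10A1, COL19A1 and COL20A1). By this limit 4.77% of all genes fell and 5.54% rose. The libraries of both groups did not overlap in normalized counts for 27 of the 44 genes, while 52.3% of all genes and 65.2% of protein-coding genes showed such a separation, so the collagen share was no higher than that of protein-coding genes.

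The median log2 fold change was -0.06 over all 44 collagen genes, and it was 0.01 when libraries were scaled by their totals alone. It was -0.35 over the fibrillar genes, -0.59 over the type IV genes and 0.09 over the others, beside 0.02 over all genes tested. For the other types this value was -0.04 without siControl replicate 3 and -0.08 with a mean of at least 1 CPM (counts per 1000000 counts of the library). Without the genes that share exon bases with another gene model the fibrillar median was 0.39 and the type IV median -1.08. The fibrillar genes left out all fell: COL1A1, COL3A1, COL5A1 and COL5A3, which share 59, 1, 54 and 270 bases. The 0.39 is the value of COL1A2, which had a mean under 1 CPM and did not pass the test (adjusted p = 0.231). With no gene left out, the type IV median was -0.12 with multiplexins and COL7A1 counted in. Abundant and scarce collagens had medians of opposite sign, as did abundant and scarce protein-coding genes. Among the 29 collagen genes with a mean of at least 1 CPM, 17 fell and 7 rose, with a median of -0.35, and the 15 below this level had a median of 0.37. At this level, 4728 of 12958 protein-coding genes fell and 4061 rose, with a median of -0.02. Below it, the median of 3519 protein-coding genes was 0.23.

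**Figure D1:**
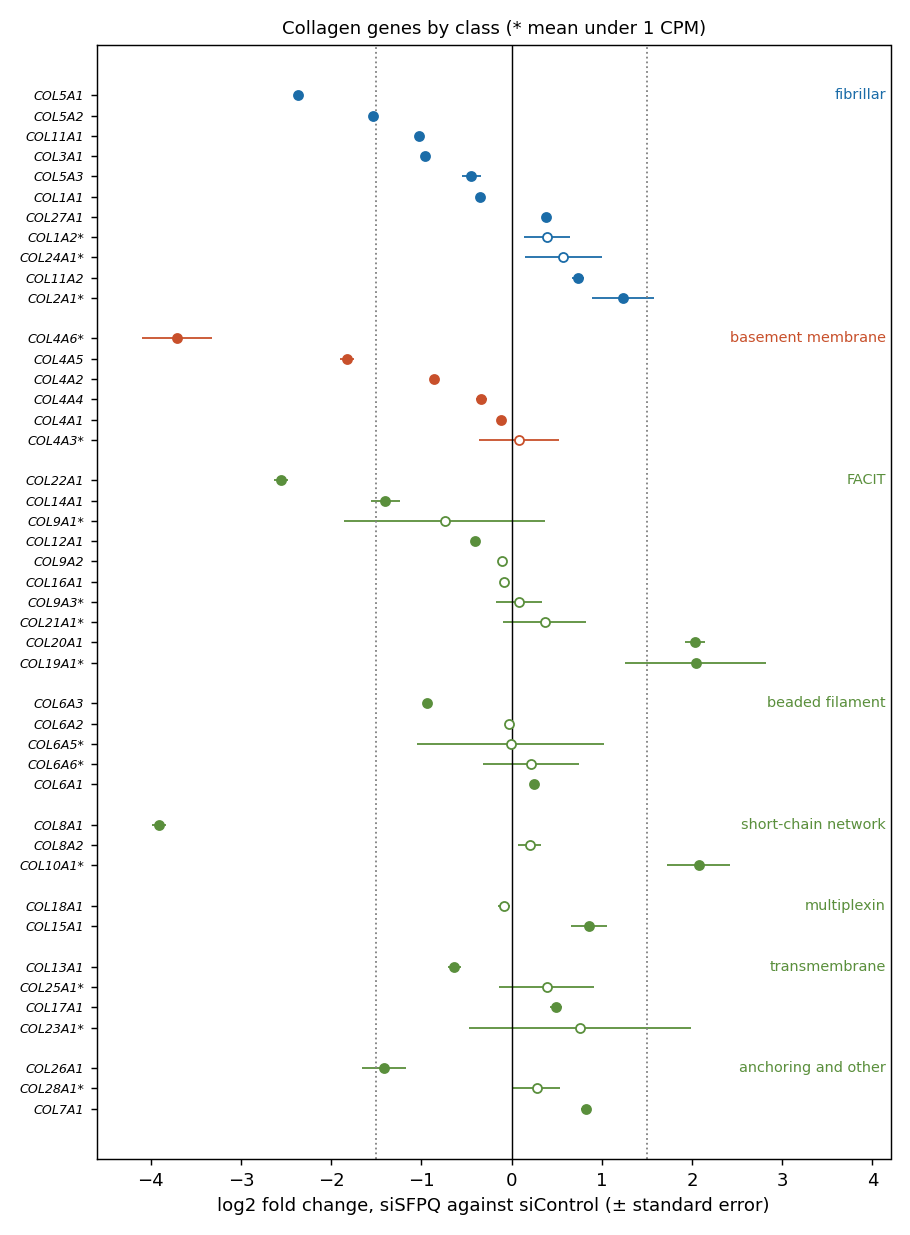
Log2 fold change of each of the 44 collagen genes, siSFPQ against siControl, grouped by class; lines are standard errors, filled points have an adjusted p under 0.05, dotted lines mark -1.5 and 1.5, and an asterisk marks a mean under 1 CPM. Of the type IV genes 5 of 6 lie below 0 with filled points, and the widest range is in the short-chain class, from -3.91 for COL8A1 to 2.07 for COL10A1.

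As a share of all counts, the 44 genes together made up 8765, 9550 and 8757 CPM in siControl and 6512, 6800 and 6438 CPM in siSFPQ. Each siSFPQ library was lower than each siControl library, and siControl replicate 2 was the highest. The mean went from 9024 ± 455 CPM to 6583 ± 191 CPM (SD, n = 3 each). COL1A1 alone supplied 31.5% of the collagen counts of siControl, so the sum weighs few genes. By class, the summed level was 4522 ± 195 against 2991 ± 79.6 CPM for fibrillar genes, 1892 ± 133 against 1348 ± 65.7 CPM for type IV genes and 2610 ± 128 against 2244 ± 46.6 CPM for the others (SD, n = 3 each). The fibrillar sum was 33.9% lower in siSFPQ, the type IV sum 28.7% lower and that of the other types 14.0% lower. For each class the siControl and siSFPQ libraries did not overlap, and an exact permutation test of 3 against 3 libraries can give no p under 0.1.

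COL1A1 and COL1A2 code for the chains of type I collagen, the main protein of bone. COL1A1 (ENSG00000108821, chr17:50184101-50201632, GRCh38) was the most abundant collagen gene per length, with 22510 normalized counts per kb of transcript in siControl. COL1A2 (chr7:94394895-94431227) stood at 7.502 normalized counts per kb in the same cells. COL1A1 had 128309, 140758 and 129676 counts in siControl and 101230, 107891 and 104283 in siSFPQ. The groups did not overlap, and COL1A1 fell by 0.35 on the log2 scale (standard error 0.04, adjusted p = 3.15e-10). COL1A2 had 34, 49 and 31 counts against 48, 47 and 55, and these ranges overlap (log2 fold change 0.39, standard error 0.26, adjusted p = 0.231). Thus the U-2 OS cells held abundant RNA of the α1(I) chain gene and very little of the α2(I) chain gene in both groups.

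COL5A1 and COL5A2, genes of type V chains, showed the largest changes of the fibrillar class. Type V collagen is a minor fibril component that sets fibril diameter. COL5A1 (ENSG00000130635, chr9:134641803-134844843) had 30743, 33665 and 29760 counts in siControl and 5694, 6822 and 5789 in siSFPQ. The siSFPQ libraries lay far below every siControl library, a 5.17-fold lower level (log2 fold change -2.37, standard error 0.05, adjusted p = 1.36e-28). COL5A2 (ENSG00000204262, chr2:189031898-189225312) had 14063, 15542 and 15064 counts against 4675, 5567 and 5183. It fell by 1.54 on the log2 scale (standard error 0.04, adjusted p = 9.04e-25), close to the limit of 1.5: the value was -1.48 without siSFPQ replicate 1 and -1.48 with libraries scaled by their totals. COL5A3, another type V chain gene of lower abundance, had 304, 334 and 319 counts against 199, 244 and 263 and fell by 0.44 on the log2 scale (standard error 0.11, adjusted p = 9.70e-04).

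COL3A1 and COL11A1 fell by similar amounts, whereas COL11A2 rose. COL3A1, which codes for the chain of type III collagen, found with type I in soft tissues, had 6034, 7007 and 6330 counts in siControl and 3149, 3580 and 3275 in siSFPQ. It fell by 0.96 on the log2 scale (standard error 0.05, adjusted p = 3.59e-18). COL3A1 lies 19.15 kb from COL5A2 on chromosome 2, on the opposite strand. COL11A1, a type XI chain gene of cartilage fibrils, had 21186, 23606 and 22774 counts against 10150, 12261 and 10786 and fell by 1.03 (standard error 0.04, adjusted p = 1.09e-19). COL11A2, the gene of a partner chain, had 555, 560 and 562 counts against 923, 974 and 905. Here the siSFPQ libraries were the higher ones, without overlap, and COL11A2 rose by 0.74 on the log2 scale (standard error 0.07, adjusted p = 1.07e-10). COL27A1, a fibrillar gene of cartilage, also rose, with 2066, 2113 and 2131 counts against 2784, 2729 and 2727 (log2 fold change 0.38, standard error 0.05, adjusted p = 1.61e-08). COL2A1, the main cartilage collagen gene, was near the lower limit of detection with at most 39 counts and rose by 1.23 (standard error 0.34, adjusted p = 0.00307).

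The type IV genes lie in head-to-head pairs, COL4A1 with COL4A2, COL4A3 with COL4A4 and COL4A5 with COL4A6, and each pair starts from a common stretch of DNA. The sequence between the starts of COL4A1 and COL4A2 is shown because both genes are transcribed away from it and yet differed in response. The bases just before COL4A5, a gene of the pair that fell the most, are shown beside it. The RefSeq starts of COL4A6 lie outside these bases. The stretches differ in length and in how they were cut, so their contents are not compared. Capitals mark the GC box (GGGCGG on either strand) and the CCAAT box (CCAAT on either strand), which do not overlap here. Both are RefSeq sequence of GRCh38.p14 on the plus strand, 5′ to 3′, the first from chr13:110307158-110307283 and the second from chrX:108439588-108439837.
COL4A1/COL4A2: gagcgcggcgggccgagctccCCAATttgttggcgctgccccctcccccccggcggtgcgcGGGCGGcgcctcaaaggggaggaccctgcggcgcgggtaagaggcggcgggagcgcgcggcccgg
COL4A5: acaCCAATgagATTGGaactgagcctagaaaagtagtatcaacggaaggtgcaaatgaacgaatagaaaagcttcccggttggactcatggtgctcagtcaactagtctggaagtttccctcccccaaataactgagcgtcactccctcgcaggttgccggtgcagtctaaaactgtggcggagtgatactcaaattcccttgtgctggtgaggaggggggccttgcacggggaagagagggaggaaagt

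The COL4A1/COL4A2 stretch is 126 bases long, has 80.2% G and C, and holds 1 GC box and 1 CCAAT box. The 250 bases before COL4A5 have 51.2% G and C and hold 0 GC boxes and 2 CCAAT boxes. Those before COL4A3, not shown, have 66.4% G and C and hold 2 GC boxes and 0 CCAAT boxes. Over RefSeq windows that run from 250 bases before a start to 50 bases after it, 48.3% of 27305 genes have a GC box and 39.7% a CCAAT box in at least 1 window. These windows were found for 32 of the 44 collagen genes, of which 21 (65.6%) have a GC box and 12 (37.5%) a CCAAT box by the same count. Among the 12 genes of these that fell, 7 have a GC box, and among the 7 that rose, 4 have one. A match of letters is a description of the window.

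COL4A1 and COL4A2 code for the chains of the type IV network found in nearly all basement membranes. COL4A2 (ENSG00000134871), the most abundant type IV gene per length, with 8470 normalized counts per kb of transcript in siControl, had 52370, 59379 and 51810 counts in siControl and 28235, 32448 and 30087 in siSFPQ. The groups did not overlap, and it fell by 0.86 on the log2 scale (standard error 0.04, adjusted p = 5.29e-18). COL4A1 (ENSG00000187498) had 28836, 34249 and 30397 counts against 27567, 30821 and 27939, and the normalized counts of its groups overlap. COL4A1 thus fell by 0.12 on the log2 scale (standard error 0.04, adjusted p = 0.0272). This small fall did not pass the test with libraries scaled by their totals (adjusted p = 0.309), with DESeq2 (adjusted p = 0.262), or without siControl replicate 2 (0.376), siSFPQ replicate 1 (0.154) or siSFPQ replicate 3 (0.201). The log2 ratio of COL4A1 to COL4A2 was -0.86, -0.79 and -0.77 in siControl and -0.03, -0.07 and -0.11 in siSFPQ. Per length, COL4A1 and COL4A2 stood at 4772 and 8470 normalized counts per kb of transcript in siControl and at 4391 and 4682 in siSFPQ.

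COL4A5 and COL4A6, on the X chromosome, code for chains of a second type IV network that occurs in skin, kidney and smooth muscle. COL4A5 (ENSG00000188153) had 1183, 1299 and 1390 counts in siControl and 348, 378 and 370 in siSFPQ. It fell by 1.82 on the log2 scale without any overlap (standard error 0.07, adjusted p = 2.81e-20). COL4A6 (ENSG00000197565) was scarce, with 58, 67 and 75 counts against 2, 10 and 3. All its siSFPQ libraries were far below the siControl libraries, and siSFPQ replicate 2 was the highest of them. It fell by 3.71 on the log2 scale (standard error 0.39, adjusted p = 7.80e-10), and its log2 fold change was -4.67 without siSFPQ replicate 2. COL4A6 has RefSeq starts 380 and 1416 bases from that of COL4A5. COL4A3 and COL4A4, whose products join COL4A5 in the kidney filter, are 418 bases apart at their starts. COL4A4 had 1273, 1375 and 1365 counts against 1018, 1129 and 1047 and fell by 0.33 (standard error 0.06, adjusted p = 1.33e-05), whereas COL4A3 had 14, 14 and 17 counts against 12, 24 and 12, too few to show a difference (log2 fold change 0.08, standard error 0.44, adjusted p = 0.905). COL4A3 shares 838 bases of its canonical exons with another gene model, MFF-DT, so its counts are uncertain.

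Among the other types COL8A1 differed the most, and of all collagen genes only COL4A6, without siSFPQ replicate 2, was further from 0 (-4.67). Type VIII collagen is a short-chain collagen of vessel walls and of the cornea, where it forms a hexagonal lattice. COL8A1 (ENSG00000144810, chr3:99638475-99799226) had 3176, 3464 and 3191 counts in siControl and 173, 271 and 214 in siSFPQ. The fitted level was 14.99-fold lower in siSFPQ (log2 fold change -3.91, standard error 0.08, adjusted p = 6.53e-29). The log2 fold change lay between -4.09 and -3.77 with any 1 library left out. Its partner gene COL8A2 had 174, 188 and 224 counts against 216, 250 and 209, with overlap (log2 fold change 0.20, standard error 0.12, adjusted p = 0.202). COL10A1, the short-chain collagen gene of hypertrophic cartilage, went up from 7, 9 and 20 counts to 53, 49 and 51, a rise of 2.07 on the log2 scale at low counts (standard error 0.35, adjusted p = 7.34e-06). The value was 2.65 without siControl replicate 3.

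FACIT collagens bind to the surface of fibrils, and their genes moved in both directions. COL22A1 (ENSG00000169436), known from tissue junctions such as that of muscle and tendon, had 1474, 1861 and 1744 counts in siControl and 274, 289 and 303 in siSFPQ. It fell by 2.56 on the log2 scale (standard error 0.08, adjusted p = 1.60e-23), with all siSFPQ libraries below all siControl libraries. COL14A1, a fibril-associated collagen gene of skin and tendon, had 193, 212 and 149 counts against 68, 73 and 69. It fell by 1.40 (standard error 0.16, adjusted p = 5.46e-09), and by 1.53 without siControl replicate 3. COL12A1, a collagen gene of tendon and ligament and the most abundant FACIT gene per length, with 3076 normalized counts per kb of transcript in siControl, had 35297, 39217 and 33536 counts against 26316, 28250 and 27184. It fell by 0.41 on the log2 scale (standard error 0.04), and the groups did not overlap.

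COL20A1 (ENSG00000101203) was a FACIT gene that went the opposite way. It had 116, 139 and 119 counts in siControl and 536, 522 and 475 in siSFPQ. The siSFPQ libraries were all higher, and it rose by 2.03 on the log2 scale (standard error 0.11, adjusted p = 8.60e-17). COL19A1 had 1, 1 and 6 counts against 16, 5 and 13, so its groups overlap. Its rise of 2.04 (standard error 0.78, adjusted p = 0.0319) did not pass the test with DESeq2 (adjusted p = 0.0563) or without siControl replicate 1 (0.0839), siControl replicate 2 (0.0963), siSFPQ replicate 1 (0.188) or siSFPQ replicate 3 (0.112), and the log2 fold change was 3.35 without siControl replicate 3. COL16A1 and COL9A2, both abundant, had log2 fold changes of -0.08 and -0.11 with adjusted p-values of 0.0991 and 0.0574. Both passed the test without siControl replicate 1 (adjusted p = 0.0089 and 0.0074) and without siSFPQ replicate 2 (0.0401 and 0.0153), with the replicate number as a block (0.0264 and 0.016) and with no count filter (0.0462 and 0.0233).

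Type VI collagen forms the beaded filaments around cells, and its chain genes COL6A1, COL6A2 and COL6A3 responded unequally. COL6A2 was the most abundant gene of the other types per length, with 5535 normalized counts per kb of transcript in siControl. COL6A3 had 23530, 27523 and 23823 counts in siControl and 12394, 13855 and 13042 in siSFPQ, and fell by 0.94 on the log2 scale without overlap (standard error 0.04, adjusted p = 1.51e-18). COL6A1 had 15952, 17153 and 15946 counts against 19023, 19920 and 19590 and rose by 0.25 (standard error 0.04, adjusted p = 6.29e-07). COL6A2 had 18544, 19659 and 18919 counts against 17849, 19281 and 18914. Its libraries overlap between the groups (log2 fold change -0.03, standard error 0.04, adjusted p = 0.502, and 0.03 with libraries scaled by their totals).

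Membrane-spanning and anchoring collagens were low to moderate in level and mixed in direction. COL7A1, which codes for the anchoring fibrils that fasten epithelium to the dermis, had 2074, 2016 and 2371 counts in siControl and 3742, 4173 and 3563 in siSFPQ. It rose by 0.82 on the log2 scale (standard error 0.05, adjusted p = 9.75e-15), and every siSFPQ library was above every siControl library. COL17A1, a hemidesmosome component, rose by 0.49 (705, 685 and 688 counts against 954, 916 and 1059, adjusted p = 4.36e-07). COL13A1, another membrane-spanning collagen gene, fell by 0.64 (1114, 1179 and 1353 counts against 737, 837 and 782, adjusted p = 2.04e-09). COL26A1 fell by 1.41 at low counts (76, 74 and 71 against 33, 26 and 24, adjusted p = 9.52e-06), and by 1.57 without siSFPQ replicate 1. COL15A1, a multiplexin gene of basement membrane zones, rose by 0.86 (51, 45 and 62 counts against 98, 98 and 91, adjusted p = 5.51e-04). The related COL18A1, which shares 1563 exon bases with SLC19A1 and is uncertain for that reason, had a log2 fold change of -0.08 (adjusted p = 0.353).

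**Figure D2:**
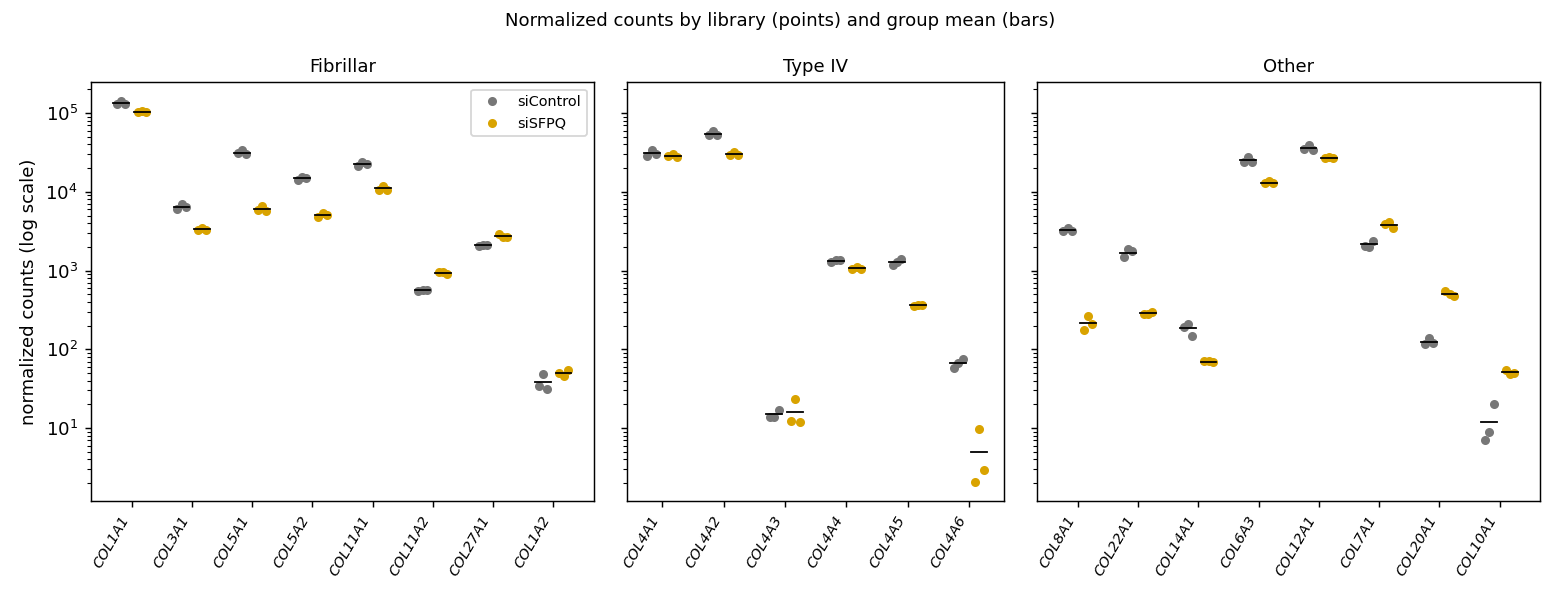
Normalized counts (log scale) of 22 collagen genes in each of 3 siControl and 3 siSFPQ libraries; points are libraries and bars are group means. The siSFPQ points lie below the siControl points for COL8A1, COL22A1, COL5A1 and COL4A5 and above them for COL20A1, COL11A2 and COL7A1, whereas those of COL4A1, COL4A3 and COL1A2 overlap.

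Genes with a mean under 1 CPM numbered 15 of the 44, and none of their libraries exceeded 75 counts. Of these, 3 rose (COL2A1, COL10A1 and COL19A1), 1 fell (COL4A6) and 11 did not pass the test, with a median log2 fold change of 0.37. Of the 3519 protein-coding genes tested under 1 CPM, 15.9% rose and 10.4% fell, with a median of 0.23. The others of this group were COL1A2, COL24A1, COL4A3, COL6A5, COL6A6, COL9A1, COL9A3, COL21A1, COL23A1, COL25A1 and COL28A1. Their log2 fold changes lay between -0.74 for COL9A1 and 0.76 for COL23A1, with standard errors from 0.26 to 1.23. Of all 44 genes, 13 share bases of their canonical exons with another gene model, from 1 base in COL3A1 to 1563 in COL18A1. At this depth smaller differences in the genes under 1 CPM were not detectable. In siSFPQ replicate 1, the smallest library, 0 counts of a gene allow up to 3 counts, or 0.069 CPM of its total count, a limit for counting error only.

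Many collagen trimers combine the products of different genes in fixed proportions, so 10 pairs of chain genes were compared within each library. The measure was the log2 ratio of both genes' normalized counts, siSFPQ minus siControl. For 8 of the 10 pairs the ratios of both groups did not overlap. Separation is common in these libraries, as 65.2% of protein-coding genes separate singly, and no share over other gene pairs was computed. COL8A1 to COL8A2 was lower by 4.13, the most of any pair, from 4.07 ± 0.21 in siControl to -0.06 ± 0.23 in siSFPQ (SD, n = 3). COL11A1 to COL11A2 was lower by 1.77, from 5.33 ± 0.07 to 3.56 ± 0.10 (SD, n = 3). COL6A3 to COL6A1 was lower by 1.18, from 0.61 ± 0.07 to -0.58 ± 0.05. Within type V, COL5A1 dropped further than COL5A2, and their log2 ratio went from 1.07 ± 0.08 to 0.25 ± 0.07.

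The ratio of COL1A1 to COL1A2 differed by -0.76, with COL1A2 at low counts. Ratios were higher in siSFPQ for COL4A5 to COL4A6 (by 2.07), COL4A1 to COL4A2 (by 0.74) and COL6A1 to COL6A2 (by 0.28). COL4A5 to COL4A6 had the widest spread, at 7.13, 5.17 and 6.72 in siSFPQ, where COL4A6 had at most 10 counts, and the difference was 2.66 without siSFPQ replicate 2. The groups overlapped for COL4A3 to COL4A4 (difference 0.35) and for COL9A2 to COL9A3 (difference -0.21). An exact permutation test (two-sided, 3 against 3 libraries) gave p = 0.1 for each of the 8 separated pairs. That is the smallest p this design allows, before any adjustment over the 10 pairs, so none could reach 0.05.

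**Figure D3:**
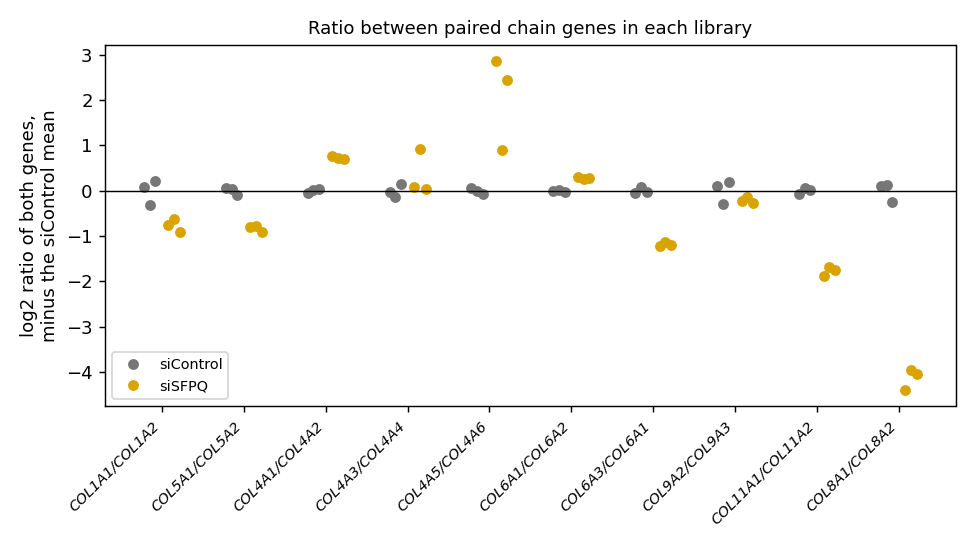
Log2 ratio of both genes of a pair in each of 3 siControl and 3 siSFPQ libraries, shown as the difference from the mean of siControl. COL8A1/COL8A2 lies lowest in siSFPQ, with a mean difference of -4.13, and COL4A5/COL4A6 highest, with 2.07.

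The span of a gene, from its start to its end with introns, ranged from 17.32 kb for COL9A2 to 494 kb for COL25A1 among the collagens. The longest abundant collagen genes fell without exception: all 6 with a span over 200 kb and a mean of at least 1 CPM (COL5A1, COL4A2, COL11A1, COL4A5, COL14A1 and COL22A1) had log2 fold changes between -2.56 and -0.86. Their median was -1.61. Of the 1116 protein-coding genes of that span and level, 77.6% fell and 10.9% rose, with a median of -0.82. With scarce genes included, 7 of 12 collagen genes over 200 kb fell, 1 rose and 4 did not pass the test, beside 68.1% that fell and 9.74% that rose among protein-coding genes of that span at any level. At 100 to 200 kb, 7 of 10 collagen genes with a mean of at least 1 CPM fell and 2 rose (COL15A1 and COL27A1), with a median of -0.37, beside -0.19 for protein-coding genes of that level, of which 54.8% fell and 19.6% rose. COL26A1, with 1.61 CPM in siControl and 0.61 CPM in siSFPQ, belongs to this set through siControl alone, and without it 6 of 9 fell. At 50 to 100 kb, 2 of 4 fell and 1 rose, beside 38.1% and 31.2% of protein-coding genes. Up to 50 kb, 4 of 9 rose and 2 fell (COL1A1 and COL3A1), with a median of 0.20, beside 0.05 for protein-coding genes, of which 36.8% rose and 26.2% fell.

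Across the 29 abundant collagen genes the Spearman correlation of the log2 fold change with the span was -0.68, and it was -0.30 across 12958 protein-coding genes of that level. Taken for each siSFPQ library against the siControl mean, it was -0.70, -0.67 and -0.68. Without COL26A1 the correlation of the fitted changes was -0.66 over 28 collagen genes, of which 16 fell and 7 rose. Over all 44 collagen genes it was -0.256, beside -0.275 over all 16477 protein-coding genes tested. Without the limit of 1 CPM it was thus no stronger in the collagens, unlike among abundant genes. Of the scarce genes over 200 kb, COL4A6 (-3.71) fell and COL19A1 (2.04) rose, while COL21A1 (0.37), COL23A1 (0.76), COL24A1 (0.57) and COL25A1 (0.39) did not pass the test. These are correlations across genes measured in the same libraries, and genes are not independent replicates. Among abundant collagens the correlation was -0.71 with the summed intron length and -0.63 with the longest intron, -0.12 with the length of the transcript, -0.04 with the number of exons and -0.14 with the mean level. Across protein-coding genes of that level these were -0.303, -0.313, -0.141, -0.065 and -0.057, in the same order. Over all 44 collagen genes the correlation with the mean level was -0.435, further from 0 than that with span, beside -0.116 over all protein-coding genes tested. By class it was -0.745 over the 11 fibrillar genes, -0.386 over the 27 other types and -0.029 over the 6 type IV genes.

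By class, the correlation with span was -1.0 over the 6 type IV genes, -0.47 over all 11 fibrillar genes and -0.08 over all 27 genes of the other types. Over the abundant genes alone it was -0.71 for 8 fibrillar genes and -0.64 for 17 genes of the other types. The type IV genes were thus ordered by span from COL4A3 (150.2 kb, 0.08), COL4A1 (158.2 kb, -0.12) and COL4A4 (161.7 kb, -0.33) to COL4A2 (207.4 kb, -0.86), COL4A5 (257.7 kb, -1.82) and COL4A6 (283.9 kb, -3.71). COL4A3, with a standard error of 0.44, does not differ from COL4A1 or COL4A4 beyond that error. Without siSFPQ replicate 2 COL4A3 was at -0.32 and COL4A1 at -0.17, which breaks the order. For each siSFPQ library against the siControl mean, the correlation over the type IV genes was -0.943, -1.0 and -0.943. Fibrillar genes over 100 kb had a median log2 fold change of -1.03 (5 genes), and those up to 100 kb one of 0.02 (6 genes). For the other types these medians were -0.01 (15 genes) and 0.14 (12 genes).

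Single genes departed from this order in both directions. COL27A1 spans 157 kb with 61 exons and a longest intron of 11.33 kb, and it rose. COL8A1 spans 160.8 kb with 4 exons and a longest intron of 106.2 kb, and it fell by 3.91. COL18A1, at 108.6 kb with a longest intron of 62.77 kb, did not pass the test. COL3A1 spans 38.37 kb and fell by 0.96, while of all 13 collagen genes up to 50 kb 6 rose, 2 fell and 5 did not pass the test.

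**Figure D4:**
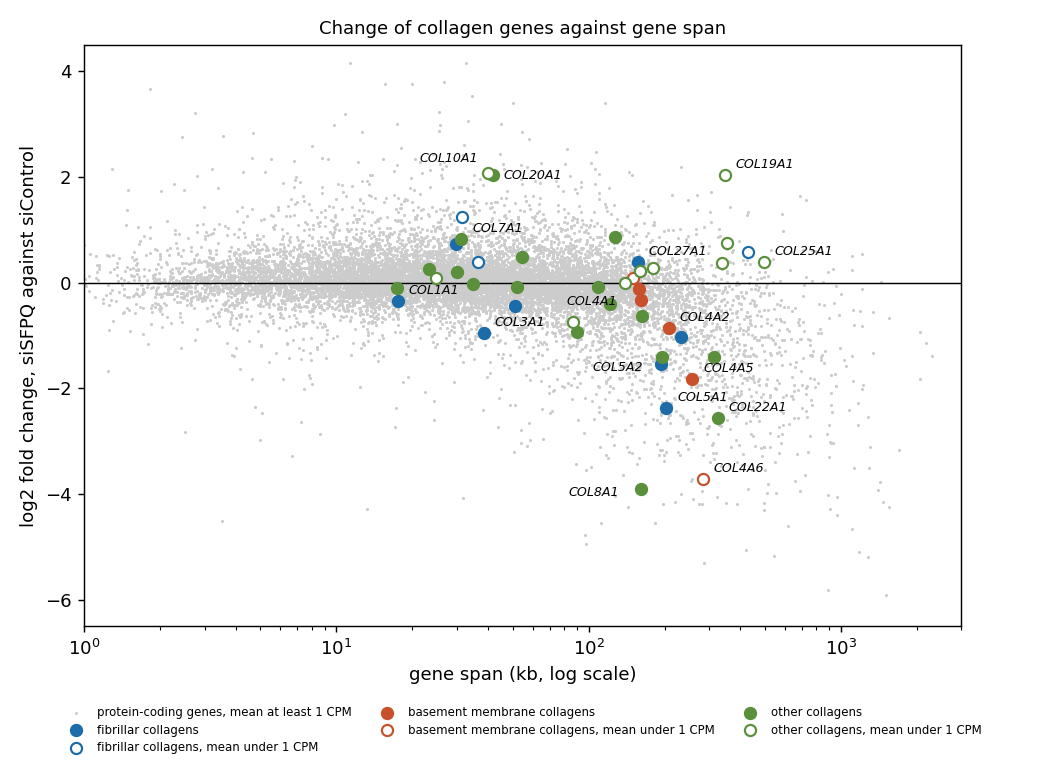
Log2 fold change, siSFPQ against siControl, against gene span in kb (log scale) for 44 collagen genes (coloured by class, open where the mean is under 1 CPM) and for protein-coding genes with a mean of at least 1 CPM (grey). The 6 filled points beyond 200 kb lie between -2.56 and -0.86, and of the 6 open points there COL4A6 lies at -3.71 and the others above 0.

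The genes that modify, secrete, trim, cross-link and bind collagen were taken as a list of 55. Of these, 29 fell, 11 rose and 15 did not pass the test, with a median log2 fold change of -0.14. Among all protein-coding genes 30.9% fell and 28.0% rose, with a median of -0.003. Among those with a mean of at least 1 CPM, 36.5% fell and 31.3% rose. Among 20 genes of modification and folding in the endoplasmic reticulum, 10 fell and 2 rose. P3H2, a prolyl 3-hydroxylase that acts on type IV collagen, had 2044, 1946 and 1961 counts in siControl and 234, 232 and 276 in siSFPQ and fell by 3.01 on the log2 scale (standard error 0.07, adjusted p = 8.04e-27). COLGALT2, which adds galactose to hydroxylysine, fell by 0.76 at low counts (adjusted p = 0.0134), with a log2 fold change of -0.52 without siControl replicate 2. Of 8 genes for the secretion of procollagen 4 fell and 1 rose, led by the coat protein gene SEC24D at -0.70 (adjusted p = 7.13e-14), and MIA2, a gene of procollagen export, rose by 0.26 (adjusted p = 1.32e-04).

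Outside the cell, 5 of 8 genes for the removal of propeptides fell and 2 rose. Beside the counts given here, 36.5% of protein-coding genes with a mean of at least 1 CPM fell and 31.3% rose. ADAMTS2, the main amino-propeptidase of fibrillar procollagen, had 1241, 1212 and 1150 counts in siControl and 196, 207 and 223 in siSFPQ, a fall of 2.53 on the log2 scale (standard error 0.08, adjusted p = 2.72e-23). TLL1, a carboxy-propeptidase gene, fell by 1.35 at low counts (adjusted p = 3.71e-06). Of 7 cross-linking genes 5 fell and 1 rose. The lysyl oxidase gene LOXL4 fell by 1.28 (13923, 14582 and 14015 counts against 5475, 6090 and 5983, adjusted p = 3.07e-24). TGM2, a transglutaminase gene, rose from 2826, 2551 and 2751 counts to 7549, 7684 and 8028, by 1.51 on the log2 scale (adjusted p = 8.99e-25), and by 1.47 without siControl replicate 2. Of 12 genes for receptors and uptake, 5 fell and 5 rose. MRC2, an endocytic receptor gene for collagen fragments, had 28535, 30114 and 28875 counts against 3458, 4089 and 3798, with no overlap (log2 fold change -2.95, standard error 0.04, adjusted p = 1.52e-32). ITGA2, the α2 integrin gene of the collagen receptor α2β1, rose by 1.33 (2229, 2663 and 2454 counts against 5808, 6470 and 6204, adjusted p = 8.72e-22). LAIR1, an inhibitory collagen receptor gene of leukocytes, rose by 1.96 at no more than 21 counts (adjusted p = 0.00973). The value was 3.42 without siControl replicate 2 and 1.51 without siControl replicate 1. Without siSFPQ replicate 2 it was 1.81, but LAIR1 did not pass the test there, as 1 pathway gene alone rose beyond 1.5 and TGM2 stood at 1.52.

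Markers of cell types that make collagen were read in the same libraries. Osteoblast markers summed to 2248, 2313 and 2342 CPM in siControl and 2030, 2037 and 2076 CPM in siSFPQ over 8 genes, of which SPARC, the most abundant, had a mean of 2099 CPM. Of these, 2 fell (SPARC and SPP1) and 1 rose, BGLAP, with a mean of 0.07 CPM. SP7 and IBSP, markers of the osteoblast lineage, had no more than 5 and 1 counts in any library, so these markers were at or near 0 in both groups. RUNX2, the transcription factor that starts this lineage, was present at a mean of 58.86 CPM (log2 fold change 0.06, adjusted p = 0.295), and ALPL at 3.43 CPM (log2 fold change -0.08, adjusted p = 0.712). Chondrocyte markers summed to 1005, 1040 and 1028 CPM against 367.5, 403.4 and 366.9 CPM over 5 genes. All 4 that could be tested fell (SOX9, ACAN, MATN3 and HAPLN1, the most abundant), and COMP had no more than 2 counts. The part of these markers in the collagen result was not tested.

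Markers of cell types that a pure line should lack were low. Epithelial markers were at 14.23, 17.57 and 15.73 CPM in siControl and 38.21, 35.01 and 37.92 CPM in siSFPQ over 5 genes, with 2 that rose, and CLDN4 was the most abundant. Endothelial markers were at 6.55, 7.39 and 5.74 CPM against 8.45, 8.26 and 7.59 CPM over 5 genes (VWF the most abundant, 2 rose and 1 fell). The part of the epithelial markers in the collagen result was not tested.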

How the data were processed

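Reads passed quality control in FastQC and were mapped by the authors to Ensembl's GRCh38 with STAR (version 2.7.9a per the submitters' processing notes). What the authors deposited are raw counts of reads per Ensembl gene, with no normalization. Reads were paired, from a stranded mRNA kit, and the strand setting of the counting is not given in the sources used here, so counts of overlapping genes are uncertain. All 6 columns were matched to samples by title, and no other column of per-sample values was present. Genes with at least 10 counts in total (29022) entered the quasi-likelihood test of edgeR 4.0.16 (R 4.3.3) after TMM normalization, without covariates and with Benjamini-Hochberg adjustment. Thresholds were an adjusted p of 0.05 and, where said, a log2 fold change beyond 1.5. Standard errors were derived from the fold change and the F statistic. Normalized counts are counts divided by the effective library size and brought to the geometric mean of those sizes, and levels per kb use the canonical transcript of GENCODE release 44 (99.67% of gene identifiers matched). CPM are per effective library size for single genes and marker lists and per total count for the summed collagen classes. Log2 ratios of chain genes added 0.5 to the normalized counts of each gene.

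Members, classes and lists were chosen with earlier results of these data known. Named were SFPQ, the collagen genes past both thresholds, the genes of each pair, the most abundant gene per kb of each class and, of each pathway list, the genes past both thresholds and the 2 largest changes with a mean of at least 1 CPM; collagen genes named beyond this were chosen after their values were seen. The alternatives were RLE factors or library size alone, filterByExpr or no filter, DESeq2 1.42.0, protein-coding genes only, other thresholds, the replicate number as a block, each library left out in turn, and 4 added after seeing the data (the set of at least 1 CPM without COL26A1, the longest intron or the number of exons in place of span, and collagens free of shared exon bases). On simulated counts for this comparison (28175 genes, 200 changed by a log2 fold of 2), 199 of the changed genes and 2 others were called by edgeR. Replicates of a group differed by more than the sampling noise. The labels call them replicates, and p-values measure the spread between these samples. A further list of cell type markers is not reported here.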

Additional observations from a re-analysis of the deposited data

How the results depend on the processing

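Settings other than those named here left the counts and values within the limits used (counts within 1.5 times, values within the spread of the replicates), and no gene that passed the test changed sign in 576 single-gene values (45 genes, each under the alternatives that tested it; COL6A5, COL9A1, COL19A1 and COL23A1 were too low for filterByExpr, and COL9A1 and COL23A1 for some left-out libraries). Of the genes that did not pass it, COL4A3, COL6A2, COL6A5, COL6A6 and COL9A3 changed sign under at least 1 alternative. Of the 576 values, 10 lost a call (COL4A1 and COL19A1) and 8 gained one (COL9A2 and COL16A1). Beyond a limit of 1, 4 pathway genes rose and 6 fell, and beyond 1.5, 1 rose without siControl replicate 2 and 1 without siSFPQ replicate 2. With filterByExpr 967 genes, not 1609, rose beyond 1.5, and with protein-coding genes only 581 rose and 830 fell beyond it; these tests held fewer genes. With DESeq2 17 collagen genes fell and 9 rose. With libraries scaled by their totals the median log2 fold change of all collagens was 0.007 (opposite in sign) and that of the fibrillar genes -0.289. With a mean of at least 1 CPM the medians were -0.352 for all collagens, -0.702 for fibrillar genes and -0.081 for the other types (opposite in sign), and the span correlation was -0.677, or -0.656 without COL26A1, which reaches that level in siControl only (added after seeing the data). Without the collagen genes that share exon bases with another gene, an alternative chosen after seeing the data, the fibrillar median was 0.390 (opposite in sign), as COL1A1, COL3A1, COL5A1 and COL5A3 were left out, and the type IV median -1.080; with multiplexins and COL7A1 counted as basement membrane collagens the latter was -0.120. The span correlation was -0.412 with filterByExpr, -0.331 with the longest intron and -0.113 with the number of exons, the last 2 added after seeing the data. With each library left out in turn, the median ranged from -0.113 to -0.035 for all collagens and from -0.040 (without siControl replicate 3) to 0.137 for the other types, the span correlation from -0.340 to -0.271, and collagen genes that fell numbered 17 to 20. The cause of these shifts was not tested.

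Replicate numbers are shared by both groups but did not pair the samples: deviations from the group means correlated at -0.029, 0.066 and 0.032 for same-numbered libraries, and not every library correlated best with its own number. With the replicate number as a block 20 collagen genes fell and 10 rose, against 18 and 10 without it, and 6530 genes of the whole table rose and 6424 fell. Depth limits the 15 collagen genes under 1 CPM the most.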
